A study of Mus musculus with 12 samples.

Results

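The 10 genes described here encode secreted or epithelial proteins of innate defence and the acute-phase response: Slpi, Lcn2, Hp, Saa1, Saa2, Saa3, Wfdc2, Pigr, Ltf and Lrg1. They were chosen by name, and 13 probes on the array matched them, of 41174 probes in all. All 10 passed the filter on dim probes and were among the 23744 genes tested. For Lcn2 only the arrays of treated mice met that filter.

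Mucosal surfaces are guarded by proteins that withhold nutrients from microbes, restrain proteases or carry antibodies into the gut lumen. Lcn2 captures bacterial siderophores, Ltf binds iron directly and Hp binds free haemoglobin, so all 3 limit the iron that microbes can reach. Slpi and Wfdc2 are WAP-domain proteins, and Slpi inhibits neutrophil elastase and cathepsin G. The serum amyloid A proteins Saa1, Saa2 and Saa3 and the glycoprotein Lrg1 belong to the acute-phase response, which inflammatory cytokines induce in liver and in epithelia. Pigr is the receptor that moves polymeric IgA across the epithelium.

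Expression was measured in scraped colon mucosa on 12 single-colour arrays, 1 colon per array and 3 mice per group. Recipients in every group were wild-type C57BL/6 mice given C57BL/6 bone marrow, so only cells of blood-forming origin could lack Muc1, which encodes a transmembrane mucin, and did so where the donor was a Muc1 KO. The groups were KO_AOMDSS (KO marrow, treated), WT_AOMDSS (WT marrow, treated), KO_untreated and WT_untreated. Treatment was 1 injection of the carcinogen azoxymethane (AOM, 12.5 mg/kg), followed after 5 days by dextran sodium sulfate (DSS), which injures the colon lining. DSS was given at 2% for 4 days and withheld for 14 days, this was done again, and 2.5% was given for 5 days before the colon was taken 1 day later.

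Values are log2 signals relative to the 75th percentile of the same array, which sets the probe with that signal at 0, and differences are log2 differences ± SE from limma. Levels are compared between groups for 1 probe at a time, never between genes, except where the brightness of probes is given as a limit. That percentile was 153 units on WT_AOMDSS 3 and 332 to 768 on the other 11 arrays. Between 58.4% and 78.7% of probes were well above background. The arrays lay on 3 slides: slide 1 held WT_untreated 1 to 3 and KO_untreated 1, slide 2 held KO_AOMDSS 3, WT_AOMDSS 3, KO_untreated 2 and KO_untreated 3, and slide 3 held the other 4 treated mice. Slide 3 had 583 to 865 outlier spots per array, against 48 to 185 on the other slides, and the spots of Pigr on KO_AOMDSS 1 and of Lrg1 on WT_AOMDSS 1 were left out as such. Slide 3 was scanned on the earlier of 2 scan days and slides 1 and 2 on the later. No untreated mouse was thus scanned on the earlier day, and scan day cannot be told apart from slide 3. No slide held both groups with WT marrow, so for them slide and treatment cannot be told apart within a slide. All 12 epithelial markers (among them Epcam, Cdh1 and Vil1) were well above background on every array.

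Treatment divided the genes evenly. Slpi, Lcn2, Ltf, Lrg1 and Hp rose in treated mice with either marrow. For Slpi, Ltf, Lrg1 and Hp the rise was 4.27 to 6.51 log2 units with KO marrow and 4.50 to 5.99 with WT marrow, and for Lcn2, not well above background in untreated mice, only a lower bound can be given. Saa1, Saa2, Saa3, Wfdc2 and Pigr did not pass the test with either marrow, with changes between -0.68 and 0.54. The probes of these 5 genes were already bright in untreated mice (group means 6.06 to 8.74). Those of the 5 that rose had untreated means of at most 2.24. How large a rise the bright probes could have shown was not tested. With an adjusted p under 0.05, 5 of 10 genes were higher with KO marrow, where 1.85% of all genes tested were called higher. With WT marrow it was 5 of 10 against 3.61% of all genes, and with both marrows averaged 5 of 10 against 7.56%. The genes were chosen with results of these data known, so these counts are not independent evidence. The median change over the 10 genes was 2.02 with KO marrow and 2.35 with WT marrow, and over all genes tested it was -0.11 and -0.24. With Lcn2 at its lower bound the medians of the 10 genes were 1.44 and 1.45.

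**Figure D1:**
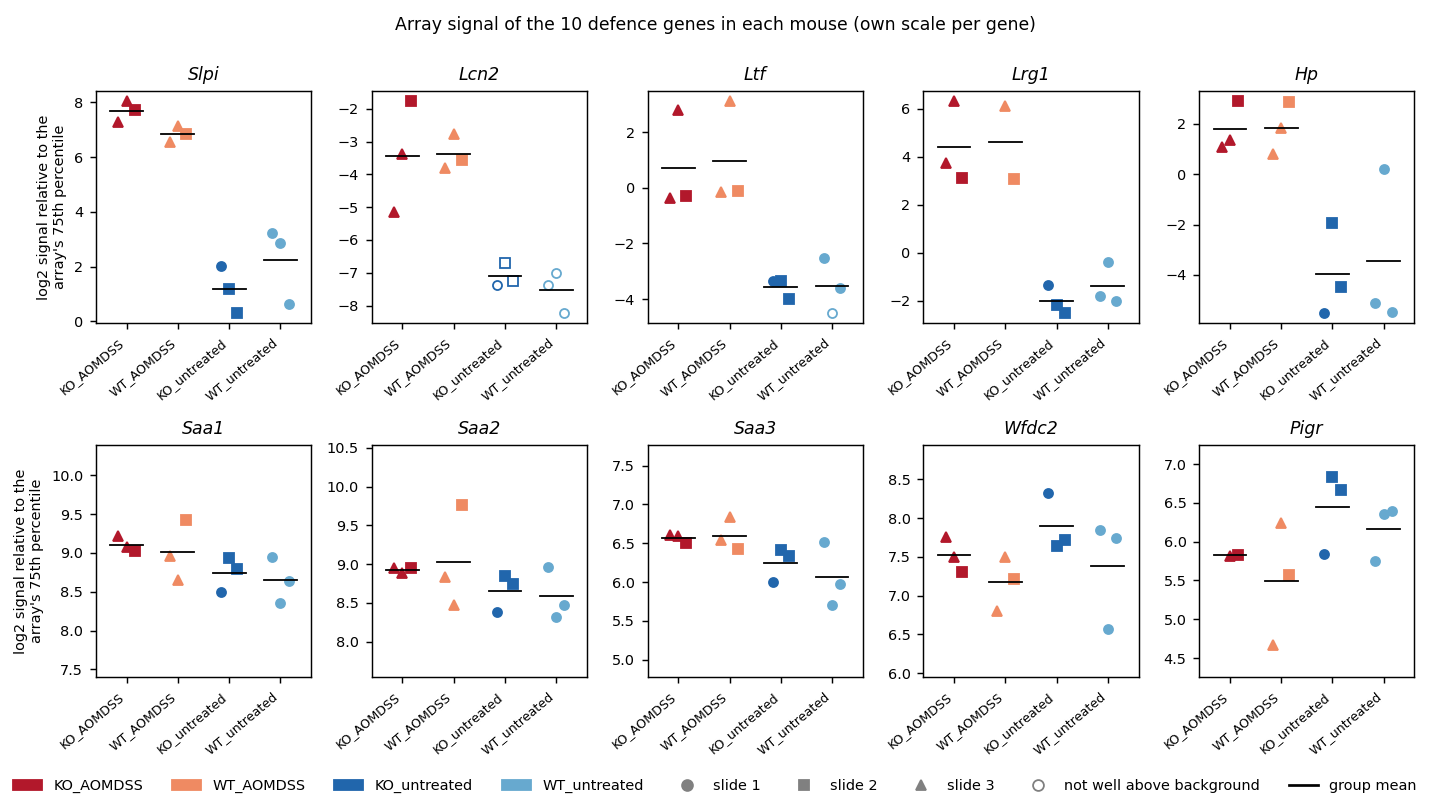
Relative log2 signal of each gene (vertical axis, own scale per gene) in each of the 12 mice, by group (horizontal axis). Marker shape gives the slide, an open marker a spot not well above background, and the line the group mean. In the top row, the treated mice of each marrow lie above the untreated mice of that marrow. In the bottom row the group means of each gene lie within 1 unit of each other.

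Promoter sequence was available for 9 of the 10 genes, as the 250 bases before each start in RefSeq (build GRCm38.p6). Genes that rose (Slpi, Lcn2, Lrg1) are shown beside serum amyloid A genes that did not pass, because the promoter letters can then be set against the response. Capitals mark matches on either strand to TTNNGNAA, a pattern of the kind bound by C/EBP factors, or to GGG, any 3 bases and TTCC, a pattern of the kind bound by NF-kB.
Slpi: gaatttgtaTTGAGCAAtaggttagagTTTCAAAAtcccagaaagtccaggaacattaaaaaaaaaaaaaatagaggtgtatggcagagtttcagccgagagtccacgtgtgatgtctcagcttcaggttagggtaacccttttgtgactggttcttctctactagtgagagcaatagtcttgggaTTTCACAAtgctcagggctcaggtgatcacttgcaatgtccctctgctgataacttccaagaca
Lcn2: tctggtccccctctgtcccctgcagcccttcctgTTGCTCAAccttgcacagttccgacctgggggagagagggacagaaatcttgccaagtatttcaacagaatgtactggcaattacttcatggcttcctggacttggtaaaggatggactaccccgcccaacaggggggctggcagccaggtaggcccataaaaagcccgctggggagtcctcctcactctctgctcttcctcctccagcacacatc
Lrg1: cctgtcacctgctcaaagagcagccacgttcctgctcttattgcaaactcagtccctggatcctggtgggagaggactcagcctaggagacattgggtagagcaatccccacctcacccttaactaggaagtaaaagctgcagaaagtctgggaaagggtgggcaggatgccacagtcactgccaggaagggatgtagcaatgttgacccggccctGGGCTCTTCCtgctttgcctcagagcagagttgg
Saa1: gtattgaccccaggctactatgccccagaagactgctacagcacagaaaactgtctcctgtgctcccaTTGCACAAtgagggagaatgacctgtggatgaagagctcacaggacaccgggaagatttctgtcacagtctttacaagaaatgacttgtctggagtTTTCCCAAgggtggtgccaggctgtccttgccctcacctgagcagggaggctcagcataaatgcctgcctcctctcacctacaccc
Saa2: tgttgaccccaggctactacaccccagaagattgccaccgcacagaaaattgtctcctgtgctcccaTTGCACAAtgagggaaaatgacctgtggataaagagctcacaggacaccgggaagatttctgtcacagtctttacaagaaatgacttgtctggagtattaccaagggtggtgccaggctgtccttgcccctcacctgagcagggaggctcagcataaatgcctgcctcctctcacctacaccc
Saa3: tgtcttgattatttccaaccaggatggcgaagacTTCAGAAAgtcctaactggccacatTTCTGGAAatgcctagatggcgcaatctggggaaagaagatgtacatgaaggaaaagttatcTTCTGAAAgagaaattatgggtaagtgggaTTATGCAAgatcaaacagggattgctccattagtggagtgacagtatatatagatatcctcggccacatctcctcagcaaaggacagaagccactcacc

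These windows are chr2:164356508-164356757 (minus strand) for Slpi, chr2:32387740-32387989 (minus) for Lcn2, chr17:56121947-56122196 (minus) for Lrg1, chr7:46742981-46743230 (minus) for Saa1, chr7:46751583-46751832 (plus) for Saa2 and chr7:46715677-46715926 (minus) for Saa3, each read 5′ to 3′ along its gene. The C/EBP-type pattern was found in 7 of the 9 promoters, against 36.8% of 32817 mouse promoters of the same length. Matches stood on both sides of the response: Slpi, which rose, had 3, and Saa3, which did not pass, had 4. The NF-kB-type pattern was found once, in Lrg1 at 34 bases before the start, and 4.65% of all promoters held it. Another pattern, TTCNNNGAA, of the kind bound by STAT factors, matched none of the 9 windows and was held by 7.01% of all promoters. No matches overlapped between patterns. These are matches of letters and were not tested as binding sites. The Saa1 and Saa2 windows were identical at 238 of 249 aligned bases (95.6%), and these neighbouring genes on chromosome 7 have no protein-coding gene between them.

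Slpi had the largest fitted change of the 10 genes with KO marrow, while with WT marrow those of Lrg1 and Hp were larger. Its relative log2 signal was 7.28, 8.04 and 7.73 in KO_AOMDSS mice and 6.57, 7.12 and 6.86 in WT_AOMDSS mice. In untreated mice it was 2.02, 1.18 and 0.32 with KO marrow and 3.23, 2.85 and 0.64 with WT marrow. All 6 treated mice thus lay above all 6 untreated mice, and the 3 KO_AOMDSS mice lay above the 3 WT_AOMDSS mice. The change was 6.51 ± 0.57 with KO marrow, or 91.2-fold (95% confidence interval 38.7 to 215, adjusted p = 0.000138 in limma). With WT marrow it was 4.61 ± 0.57, or 24.4-fold (10.4 to 57.6, adjusted p = 0.00171). In bulk mucosa, a larger number of cells expressing a gene and more RNA per cell cannot be told apart. Slpi was past the threshold under all alternatives run for both treatment comparisons, including slide as a block (5.91 with WT marrow, adjusted p = 0.037). A second Slpi probe was not well above background on any of the 12 arrays and was not used.

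Wfdc2, another WAP-domain protein of epithelia, showed no such pattern. It measured 7.75, 7.50 and 7.31 in KO_AOMDSS mice, 6.80, 7.50 and 7.21 in WT_AOMDSS mice, 8.32, 7.64 and 7.72 in KO_untreated mice and 7.85, 6.57 and 7.74 in WT_untreated mice. The treated and untreated groups overlapped with both marrows. Its change was -0.37 ± 0.34 with KO marrow (adjusted p = 0.7) and -0.22 ± 0.34 with WT marrow (adjusted p = 0.691 in limma), and the sign with WT marrow turned under quantile normalization (0.09) and with slide as a fixed or random block (0.34 and 0.05). The Wfdc2 probe already read 31600 to 182000 units of processed signal in untreated mice. How large a rise it could have shown was not tested. Slpi and Wfdc2 lie on chromosome 2 with 7 protein-coding genes between them.

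Lcn2, the siderophore-binding lipocalin of neutrophil granules and inflamed epithelium, was detected in treated mice only: its probe was well above background on 6 of 6 arrays of treated mice and on 0 of 6 arrays of untreated mice. The values were -5.16, -3.39 and -1.77 in KO_AOMDSS mice, -3.81, -2.76 and -3.55 in WT_AOMDSS mice, -7.36, -6.70 and -7.25 in KO_untreated mice and -7.37, -7.02 and -8.22 in WT_untreated mice. All treated mice lay above all untreated mice, and KO_AOMDSS 1 was the lowest of the treated ones. In group means, Lcn2 was at least 5.7-fold higher in KO_AOMDSS than in KO_untreated mice (adjusted p = 0.0229 in limma). It was at least 5.13-fold higher in WT_AOMDSS than in WT_untreated mice (adjusted p = 0.0101 in limma). These bounds set the treated mean against, on each untreated array, the higher of the probe's signal and the dimmest signal that still counted as well above background. Here and for the other lower bounds, the adjusted p belongs to the fitted difference and not to the bound. Each bound is built from group means and does not allow for the spread among mice. The confidence interval of the fitted Lcn2 difference began at 3.9-fold with KO marrow, below the bound, and at 5.5-fold with WT marrow. Leaving out 1 array at a time kept the Lcn2 call in 12 of 12 fits with WT marrow and in 7 of 12 with KO marrow (adjusted p up to 0.101, lost without KO_AOMDSS 2 or 3 or any KO_untreated mouse). Arrays of the other marrow enter these fits only through the estimate of the spread. Among the KO-marrow arrays, only leaving out KO_AOMDSS 1 kept the call with KO marrow. The processed signals were low, 13.1 to 148 units in treated mice. Normexp background correction adds 50 units to every spot. With it, Lcn2 changed by 1.4 log2 units with KO marrow (adjusted p = 0.486 in limma). With WT marrow Lcn2 changed by 1.67 log2 units (adjusted p = 0.163 in limma). Neither change passed the test, and both were smaller than the bounds given above.

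Ltf, the iron-binding lactoferrin of neutrophil granules, differed more among treated mice than between the marrows. It measured -0.36, 2.80 and -0.30 in KO_AOMDSS mice and -0.16, 3.11 and -0.10 in WT_AOMDSS mice, against -3.34, -3.34 and -3.99 in KO_untreated and -2.53, -4.49 and -3.61 in WT_untreated mice. Replicate 2 of either treated group was about 3 log2 units above its group's other mice, and all treated mice lay above all untreated mice. Both of those arrays were on slide 3. The change was 4.27 ± 0.94 with KO marrow (19.3-fold, adjusted p = 0.0255 in limma) and 4.50 ± 0.94 with WT marrow (22.6-fold, adjusted p = 0.0148). Without KO_AOMDSS 2 it was 3.22 with KO marrow (adjusted p = 0.104), and without WT_AOMDSS 2 it was 3.42 with WT marrow (adjusted p = 0.0381). The call was also lost without any 1 of the KO_untreated mice (KO marrow, adjusted p up to 0.121) and without WT_untreated 2 (WT marrow, 0.0667). A second Ltf probe had a correlation of 0.978 with the first over the 12 arrays and gave changes of 3.75 and 3.20.

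Lrg1 encodes a secreted leucine-rich glycoprotein of liver and neutrophil granules that modifies TGF-beta signalling in blood vessels. Its level was 3.75, 6.32 and 3.11 in KO_AOMDSS mice and 6.13 and 3.08 in WT_AOMDSS mice 2 and 3. It was -1.33, -2.15 and -2.49 in KO_untreated mice and -1.80, -0.36 and -1.99 in WT_untreated mice. Treated and untreated mice did not overlap, and replicate 2 of either treated group was again about 3 units above replicate 3 of that group. Lrg1 rose by 6.38 ± 0.87 with KO marrow (83.5-fold, adjusted p = 0.00216 in limma) and by 5.99 ± 0.97 with WT marrow (63.5-fold, adjusted p = 0.00613, 2 treated mice). The spot left out on WT_AOMDSS 1 read 6.40, and with such spots kept the change with WT marrow was 6.59 (adjusted p = 0.0026).

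Hp, which encodes the haemoglobin-binding haptoglobin of liver, adipose tissue and neutrophils, varied most among untreated mice. It measured 1.08, 1.36 and 2.90 in KO_AOMDSS mice, 0.79, 1.84 and 2.88 in WT_AOMDSS mice, -5.50, -1.92 and -4.48 in KO_untreated mice and -5.10, 0.19 and -5.46 in WT_untreated mice. The treated mice of each marrow lay above its untreated mice, and WT_untreated 2 stood more than 5 log2 units above the other WT_untreated mice. Hp rose by 5.74 ± 1.29 with KO marrow (53.5-fold, 95% confidence interval 7.8 to 368, adjusted p = 0.028 in limma) and by 5.29 ± 1.29 with WT marrow (39.2-fold, 5.72 to 269, adjusted p = 0.0242). Leaving out 1 array at a time, the call was kept in 7 of 12 fits with KO marrow (adjusted p up to 0.125, lost without KO_AOMDSS 1, 2 or 3 or KO_untreated 1 or 3) and in 8 of 12 with WT marrow (up to 0.102, lost without WT_AOMDSS 1 or 2 or WT_untreated 1 or 3). Among the arrays compared, it was kept with KO marrow only without KO_untreated 2. With WT marrow it was kept only without WT_AOMDSS 3 or WT_untreated 2. The other fits left out an array of the other marrow, which does not change the difference itself.

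Markers of adipocytes, a cell type that also makes Hp, were high on the same array. Their summed signal, in multiples of the array's 75th percentile, was 114 on WT_untreated 2, 16.2 on WT_AOMDSS 2 and 2.08 to 6.22 on the other arrays. Adipoq, the adipocyte hormone adiponectin, read 2.79 on WT_untreated 2, against -3.18 and -3.10 on the other WT_untreated arrays. KO_untreated 2, the untreated KO mouse with the highest Hp, had an adipocyte sum of 2.29. Of the liver-cell (hepatocyte) markers, Alb, Ahsg and Apoa2 read -0.26, -0.85 and -2.31 on that array, each the highest of any array. Ttr, Apob and Tat were not highest there, and a link of these markers to Hp was not tested. Without WT_untreated 2 the Hp change with WT marrow was 7.12 (adjusted p = 0.0057), and without KO_untreated 2 the change with KO marrow was 6.77 (adjusted p = 0.0325 in limma). Of 6 tested adipocyte markers, 0 were called with either marrow.

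**Figure D2:**
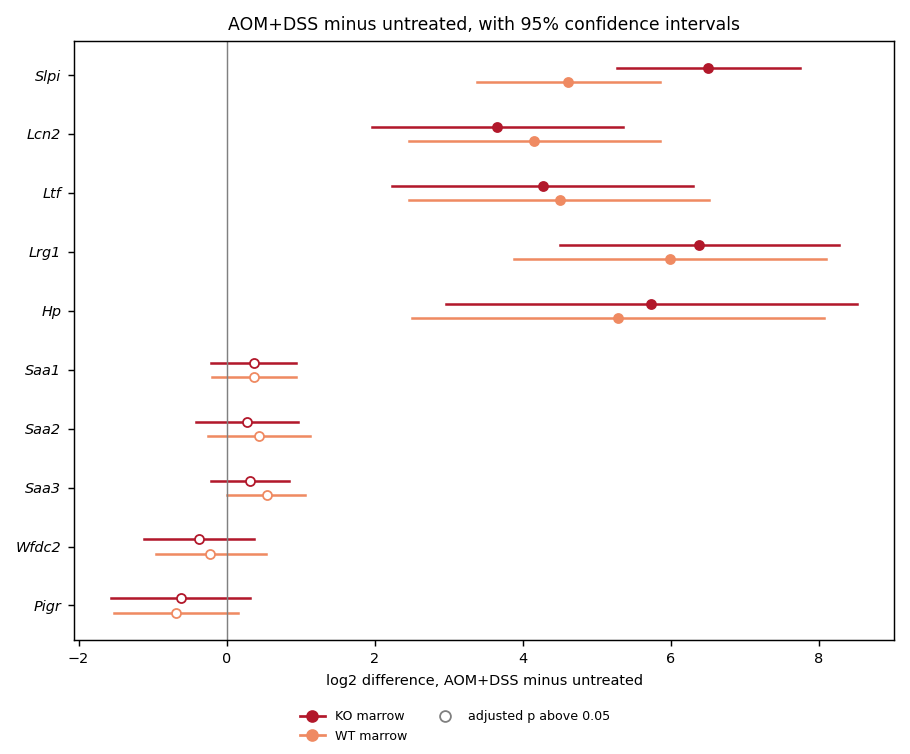
Log2 difference, AOM+DSS minus untreated (horizontal axis), for each gene with KO marrow and WT marrow, with 95% confidence intervals. Filled points had an adjusted p under 0.05. Slpi, Lcn2, Ltf, Lrg1 and Hp lie right of 0 with both marrows, and the intervals of the other 5 genes are short and lie near 0. The Lcn2 points are fitted values against untreated mice in which it was not well above background, so they are not exact sizes.

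The serum amyloid A genes were already well above background in every untreated mouse and did not pass the test. Saa1 measured 9.22, 9.08 and 9.02 in KO_AOMDSS mice, 8.96, 8.65 and 9.43 in WT_AOMDSS mice, 8.50, 8.94 and 8.79 in KO_untreated mice and 8.95, 8.36 and 8.64 in WT_untreated mice. Its change was 0.37 ± 0.26 with either marrow (adjusted p = 0.602 with KO marrow and 0.353 with WT marrow in limma). A second Saa1 probe gave 0.21 and 0.50 and had a correlation of 0.9 with the first. The upper ends of the 95% intervals were 0.94 with KO marrow and 0.94 with WT marrow. In untreated mice the probe already read 102748 to 246847 units of median pixel signal, and the brightest probe on any array read 434904. A rise of the size seen for Slpi or Hp would have lain beyond that signal, so the intervals do not exclude one.

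Saa2, the acute-phase copy next to Saa1, measured 8.95, 8.89 and 8.95 in KO_AOMDSS mice, 8.83, 8.48 and 9.76 in WT_AOMDSS mice, 8.38, 8.85 and 8.75 in KO_untreated mice and 8.96, 8.32 and 8.48 in WT_untreated mice. The change was 0.27 ± 0.32 with KO marrow and 0.44 ± 0.32 with WT marrow (adjusted p = 0.771 and 0.358 in limma). Saa1 and Saa2 had a correlation of 0.93 over the 12 arrays, and since the genes are near-identical copies, which of them each probe measured was not tested. With normexp background correction the changes with WT marrow were -0.09 for Saa1 and -0.12 for Saa2.

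Saa3, a serum amyloid A gene that mice express outside the liver, measured 6.61, 6.60 and 6.50 in KO_AOMDSS mice and 6.54, 6.84 and 6.42 in WT_AOMDSS mice. It measured 6.00, 6.41 and 6.34 in KO_untreated mice and 6.51, 5.70 and 5.97 in WT_untreated mice. The treated KO-marrow mice all lay above the untreated ones by a narrow margin, while the groups with WT marrow overlapped. The change was 0.32 ± 0.24 with KO marrow and 0.54 ± 0.24 with WT marrow (adjusted p = 0.628 and 0.142 in limma), and 0.43 ± 0.17 with the marrows averaged (adjusted p = 0.0885). Saa3 passed with the marrows averaged without WT_AOMDSS 3 (0.47, adjusted p = 0.0426) and with array weights (0.39, adjusted p = 0.0342), and with array weights for WT marrow (0.54, adjusted p = 0.0462). Quantile normalization called all 3 serum amyloid A genes higher with the marrows averaged, by 0.53 for Saa1 (adjusted p = 0.0403), 0.56 for Saa2 (0.0247) and 0.60 for Saa3 (0.0307), and it moved the median of all genes to -0.06, against -0.19 in the fit reported here. No spot was saturated, but how large a rise such bright probes could have shown was not tested. The Saa1 probe read 102748 to 293459 units of median pixel signal over the 12 arrays, where the brightest probe of each array read 316527 to 434904.

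Pigr carries polymeric IgA through epithelial cells. It measured 5.82 and 5.83 in KO_AOMDSS mice 2 and 3, 4.67, 6.24 and 5.57 in WT_AOMDSS mice, 5.84, 6.83 and 6.67 in KO_untreated mice and 5.75, 6.36 and 6.40 in WT_untreated mice. The measured KO_AOMDSS mice lay just below the lowest KO_untreated mouse, and the groups with WT marrow overlapped. The change was -0.62 ± 0.43 with KO marrow (adjusted p = 0.582) and -0.68 ± 0.38 with WT marrow (adjusted p = 0.24 in limma). The spot left out on KO_AOMDSS 1 read 5.53. With the marrows averaged, the change was -0.65 (adjusted p = 0.12), and -0.80 (adjusted p = 0.021) with the replicate number as a block. Pigr also passed with the marrows averaged without WT_AOMDSS 2 (-0.84, adjusted p = 0.0477) and with array weights (-0.98, adjusted p = 0.00975), and with array weights for WT marrow (-1.07, adjusted p = 0.0148 in limma). Jchain, which joins the IgA that Pigr carries, rose by 2.63 ± 0.41 with KO marrow (adjusted p = 0.00371) and by 2.33 ± 0.41 with WT marrow (adjusted p = 0.00758). The summed plasma cell markers, Jchain among them, were 32 to 36.7 in KO_AOMDSS and 16.4 to 38.1 in WT_AOMDSS mice, against 14.6 to 21.4 in KO_untreated and 13 to 14.9 in WT_untreated mice, and 1 of 6 was called with each marrow.

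Counted by whether the values overlapped, 8 of 10 genes lay wholly above the untreated mice with KO marrow and 5 of 10 with WT marrow, where 11.2% of all genes did so with KO marrow and 11.2% with WT marrow. The 3 that were added with KO marrow were Saa1, Saa2 and Saa3.

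Fitted with slide as a fixed block, the treatment effect with KO marrow was 6.96 for Slpi (adjusted p = 0.000639), 6.06 for Hp (0.043) and 5.11 for Lrg1 (0.00708), and Ltf at 3.35 (0.0962) missed the threshold. Lcn2, again measured against untreated mice below the detection mark, had an adjusted p of 0.0191. With WT marrow the block left Slpi alone past it, with 5.77 for Lrg1 (adjusted p = 0.0697), 4.08 for Hp (0.373) and 3.80 for Ltf (0.276 in limma), and an adjusted p of 0.142 for Lcn2. Slide 2 held 1 treated and 2 untreated mice with KO marrow, too few to show the spread among treated mice, and its values are given without a test. KO_AOMDSS 3 differed from the mean of KO_untreated 2 and 3 by 6.98 for Slpi, 6.10 for Hp, 5.43 for Lrg1, 3.37 for Ltf and -0.92 for Pigr.

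The neutrophil markers moved with the genes that rose. Of 12 listed, 9 were tested and 6 were called higher with each marrow, S100a8 and S100a9 among them. Their summed signal was 15.3 to 58.3 in KO_AOMDSS and 55.7 to 123 in WT_AOMDSS mice, against 1.75 to 5.05 in KO_untreated and 1.5 to 3.01 in WT_untreated mice. KO_AOMDSS 1, the treated mouse with the lowest Lcn2, had the lowest neutrophil sum among treated mice. KO_AOMDSS 2 and WT_AOMDSS 2, the mice with the highest Ltf and, with the WT_AOMDSS 1 spot left out, the highest Lrg1, had sums of 58.3 and 73.9, and WT_AOMDSS 3, with the highest sum at 123, had an Ltf of -0.10 and an Lrg1 of 3.08. A linear sum is weighted to its brightest marker, and S100a9 read 6.80 on WT_AOMDSS 3. The markers did not order these mice alike. Cd177 read 3.78 on KO_AOMDSS 2, 3.68 on WT_AOMDSS 2 and -1.05 on WT_AOMDSS 3, while Retnlg read -2.11, -1.92 and 0.89 there. Macrophage markers were summed at 6.97 to 9.32 in KO_AOMDSS and 5.14 to 8.08 in WT_AOMDSS mice, against 1.19 to 2.48 in KO_untreated and 1.82 to 3.39 in WT_untreated mice, with 5 of 9 called higher with each marrow. The part of these cells in the 5 rises was not tested. Epithelial markers were summed at 1800 to 3990 in treated and 2270 to 3320 in untreated mice, and 0 of 12 were called. Of 6 tested hepatocyte markers, Alb fell by 3.11 with KO marrow (adjusted p = 0.0337) and Ttr fell by 2.48 with KO marrow and by 2.03 with WT marrow, while Tat rose by 1.26 with WT marrow. Alb read -3.24, -0.26 and -3.25 in KO_untreated mice, so 1 of those mice stood well above the others.

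Of 7 fibroblast markers, 3 rose with KO marrow and 2 with WT marrow, led with KO marrow by Pdgfra at 4.03 ± 0.65. The summed fibroblast markers were 13.3 on WT_untreated 2 and 1.25 to 2.31 on the other untreated arrays. On the arrays of treated mice they were 4.17 to 17.1. With WT marrow Pdgfra was at least 3.38-fold higher (adjusted p = 0.0295 in limma), since no WT_untreated array had it well above background, but the mean of its probes gave -0.07. Of 3 tested red blood cell markers, 2 fell with WT marrow, and one of them was Hba-a1, a chain of the haemoglobin that Hp binds, which fell by 2.54 ± 0.79 (adjusted p = 0.0495 in limma). Most genes called with WT marrow fell, since 858 of 3278 were higher. No goblet cell marker (6 tested) or endothelial marker (5 tested) was called with either marrow.

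**Figure D3:**
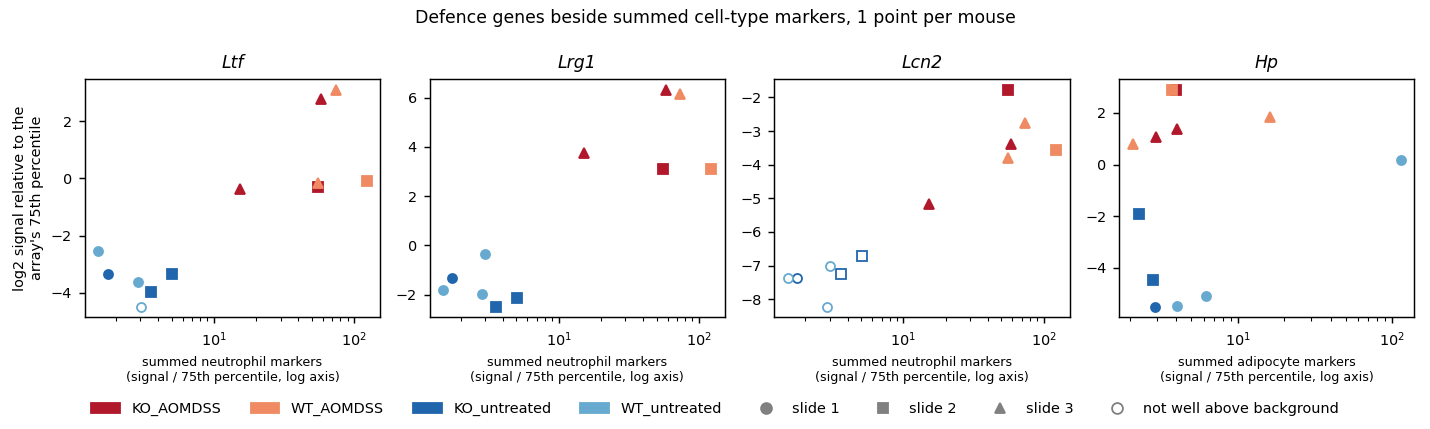
Relative log2 signal (vertical axis) of Ltf, Lrg1 and Lcn2 against the summed neutrophil markers, and of Hp against the summed adipocyte markers (horizontal axes, logarithmic, in multiples of the array's 75th percentile), 1 point per mouse. Colour gives the group, shape the slide and an open marker a spot not well above background. Treated mice lie right of and above untreated mice in the first 3 panels, and WT_untreated 2 stands apart in the Hp panel with an adipocyte sum of 114.

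The other lists were chosen with results of these data known. Over all 23744 genes tested, 439 of 749 called were higher with KO marrow and 858 of 3278 with WT marrow. Calls with WT marrow were thus mostly falls, and the counts of falls in the lists stand beside that. Among 19 tested genes of other antimicrobial proteins, 7 rose and 1 fell with KO marrow, and 5 rose and 2 fell with WT marrow, with median changes of 2.12 and 1.11. Reg3b, a secreted C-type lectin that kills bacteria, rose by 10.22 ± 1.43 with KO marrow (adjusted p = 0.00209) and by 6.77 ± 1.43 with WT marrow (adjusted p = 0.0155). S100a8, a subunit of the metal-binding calprotectin, rose by 8.31 and 9.57. The lectin Reg3g rose by 7.60 ± 1.13 with KO marrow (adjusted p = 0.00261) and by 6.39 ± 1.13 with WT marrow (adjusted p = 0.00753). S100a8 and S100a9 also stand in the neutrophil list.

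The other acute-phase genes were divided. Of 17 tested, 5 rose and 0 fell with KO marrow, while 3 rose and 4 fell with WT marrow, and the median changes were -0.38 and 0.10. Falls were also the more frequent call over all genes with WT marrow, where 858 of 3278 called genes were higher. Lbp, which presents bacterial lipopolysaccharide, rose by 4.12 ± 0.81 with KO marrow and by 3.46 ± 0.81 with WT marrow. C3, the central complement component, rose by 3.18 ± 0.76 with KO marrow (adjusted p = 0.04). Apcs, serum amyloid P, fell by 4.47 ± 0.67 with WT marrow (adjusted p = 0.00423), and so did Hpx, the haem carrier hemopexin, by 2.76 ± 0.73 (adjusted p = 0.0313 in limma), although Hpx was at 0.17 with normexp background correction.

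Among WAP-domain genes and serine proteases, 4 of 13 rose and 0 fell with KO marrow, and 3 rose and 2 fell with WT marrow. Wfdc18, a WAP-domain gene, rose by 3.89 ± 0.42 and 3.58 ± 0.42. Ctsg, the protease cathepsin G that Slpi inhibits, fell by 2.34 ± 0.56 with WT marrow (adjusted p = 0.0233), and with slide as a fixed block its change was 0.08. Of 12 tested receptors and partners of the 10 proteins, 2 rose and 0 fell with each marrow. Fpr2, a formyl peptide receptor that also binds serum amyloid A, rose by 3.89 ± 0.96 with KO marrow (adjusted p = 0.0454).

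Cytokines that induce such genes were mostly higher. Of 9 tested, 5 rose with KO marrow and 6 with WT marrow, and 0 fell with either. Il1b rose by 7.26 ± 0.65 with KO marrow and by 7.18 ± 0.65 with WT marrow. Il22, which acts on epithelial cells, was at least 3.56-fold higher with WT marrow (adjusted p = 0.0208), and Il6 at least 5.3-fold higher with KO marrow (adjusted p = 0.0149 in limma). Of 19 tested genes of signalling and transcription, 4 rose and 0 fell with KO marrow, and 3 rose and 1 fell with WT marrow. Osmr, a receptor subunit for oncostatin M, rose by 5.60 ± 0.66 with KO marrow and by 4.50 ± 0.66 with WT marrow. Socs3, which is induced by and restrains STAT signalling, rose by 4.41 ± 0.33 and 4.45 ± 0.33, and Cebpb, a C/EBP factor, rose by 1.44 ± 0.28 and 1.95 ± 0.28.

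The second question of the design was whether marrow lacking Muc1 changed these genes. In treated mice, KO against WT marrow, 0 of 10 genes were called and 0% of all genes, with 231 of 23744 genes and 0 of the 10 at an unadjusted p under 0.05 in limma. In untreated mice it was 0 of 10 and 0% of all genes, with 2910 genes and 0 of the 10 at that unadjusted level. For how far the treatment effect differed by marrow it was 0 of 10 and 0%, with 829 genes and 1 of the 10. The counts do not show that the marrows acted alike. In treated mice the 95% intervals of KO minus WT ran from -0.48 to 0.66 for Saa1 and from -0.56 to 0.49 for Saa3, but from -2.84 to 2.72 for Hp and from -2.32 to 1.90 for Lrg1.

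Slpi was the 1 gene of the 10 with an unadjusted p under 0.05. Its rise was larger with KO marrow by 1.90 ± 0.81 (95% confidence interval 0.15 to 3.65, adjusted p = 0.897 in limma). The difference had a part on each side: KO minus WT marrow was 0.84 (interval -0.40 to 2.07, adjusted p = 1) in treated mice and -1.06 (interval -2.30 to 0.17, adjusted p = 0.427) in untreated mice. In treated mice, KO minus WT was 0.82 within slide 3 and 0.87 within slide 2. In untreated mice it was -0.22 within slide 1, where 1 KO mouse stood against 3 WT mice. With array weights the difference in the treatment effect was 2.58 (adjusted p = 0.00857) and the difference in untreated mice -1.81 (adjusted p = 0.00273), a setting that called 6670 and 10732 of all genes in those comparisons. With slide as a fixed block the difference in the treatment effect was 1.06 (adjusted p = 1).

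**Figure D4:**
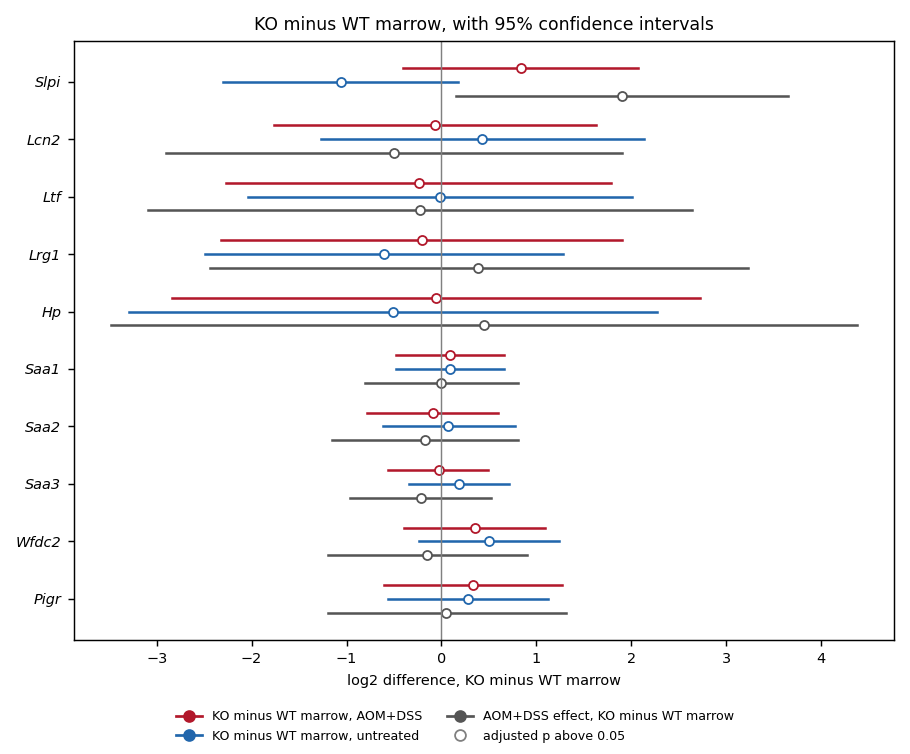
Log2 difference, KO minus WT marrow (horizontal axis), for each gene in treated mice, in untreated mice and for the treatment effect, with 95% confidence intervals. All points are open, since none had an adjusted p under 0.05. The Slpi interval for the treatment effect, 0.15 to 3.65, is the 1 interval that does not include 0.

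Across the 12 arrays, which share treatment, slide and scaling, the mean centred level of the 10 genes was 1.07, 1.76 and 1.38 in KO_AOMDSS, 0.54, 1.77 and 1.21 in WT_AOMDSS, -1.39, -0.97 and -1.51 in KO_untreated and -1.10, -0.90 and -1.69 in WT_untreated mice. Left-out spots do not enter these means. The 0.54 of WT_AOMDSS 1 therefore lacks Lrg1, whose left-out spot read 6.40, and the 1.07 of KO_AOMDSS 1 lacks Pigr. Treated and untreated mice did not overlap. The genes outside the 10 with the most similar pattern were Itgax (r = 0.974), Spp1 (0.972), Mpeg1 (0.969), Khdc1a (0.966) and Marcksl1 (0.962, n = 12 arrays). Among the 10, Ltf was closest to Lrg1 (r = 0.95, 11 arrays), Slpi to Lrg1 (0.941), Lcn2 to Slpi (0.91) and Hp to Lcn2 (0.889), while Wfdc2 and Pigr were closest to each other at 0.304.

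The authors' deposited table of 2506 probes held 6 probes of 5 of the 10 genes, and these were the 5 that rose. The authors named that table as differentially expressed, and it comes from the same arrays, so the overlap is not independent evidence. In the authors' deposited table, the difference between the treated and untreated means with KO marrow was 6.52 for Slpi, 5.75 for Hp, 3.76 and 4.28 for the Ltf probes and 6.39 for Lrg1. With WT marrow the authors' deposited table gave 4.64 for Slpi, 5.32 for Hp, 3.23 and 4.52 for Ltf and 6.61 for Lrg1.

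**Figure D5:**
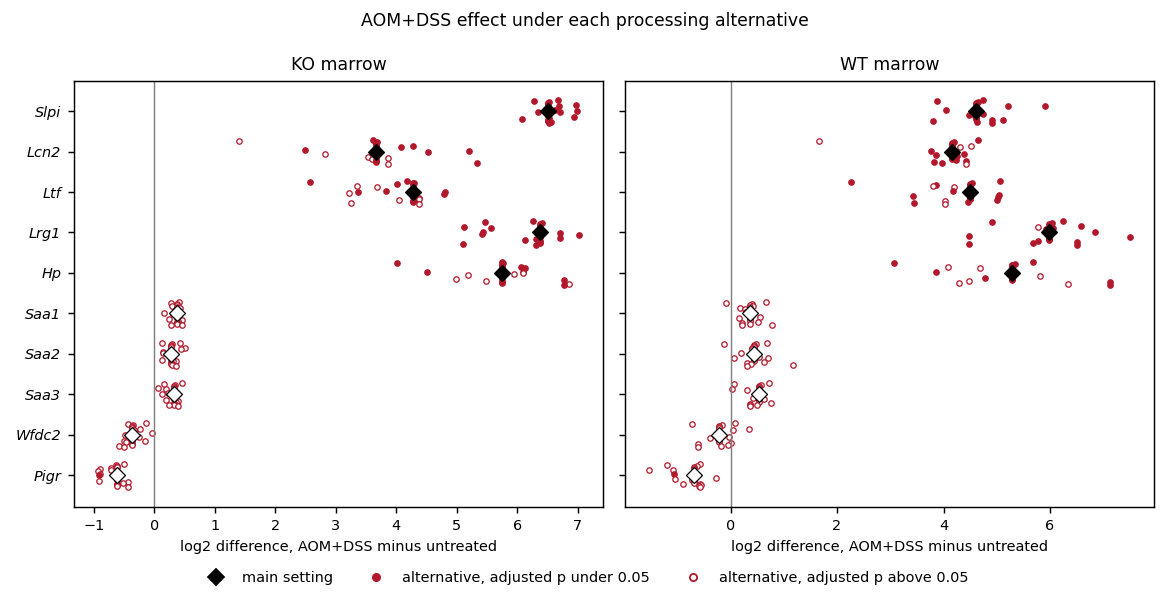
Log2 difference, AOM+DSS minus untreated (horizontal axis), for each gene with KO marrow and with WT marrow, as reported here (diamonds) and under each processing alternative (circles). Filled symbols had an adjusted p under 0.05. All values of Slpi, Lcn2, Ltf, Lrg1 and Hp lie right of 0, and Slpi and Lrg1 have the fewest open circles of the 5. The Lcn2 points are fitted values, not exact sizes.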

How the data were processed

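Gene expression was measured in colon mucosa of 12 mice on single-colour Agilent arrays (design 014868). The authors deposited the scanner output of Feature Extraction 10.7.3.1, whose values are linear spot intensities, background-corrected but not scaled between arrays, per the file headers. A deposited table of the authors holds log2 group means of 2506 probes, centred per probe and scaled, set against the arrays, like the values used here (r of 1 and 0.998 for the differences). The authors named it as differentially expressed, and the rule by which they picked those probes is not stated in the labels or headers. Probes were named through RefSeq accessions in the files.

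The intensities were taken to log2 and each array's 75th percentile was subtracted, without control spots and with outlier spots set to missing. A probe was kept when some group had it well above background in all 3 mice, and each gene was represented by its kept probe of highest mean. A linear model with 4 group means was fitted to 12 arrays with limma 3.58.1 in R 4.3.3 (8 residual and 4.9 prior degrees of freedom, variance trend in intensity), with Benjamini-Hochberg adjustment over 23744 genes and a threshold of 0.05, two-sided. The labels name separate colons, and 3 mice per group limit the precision. The method was tested on simulated data.

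The 10 genes and the other 16 lists were chosen with earlier results of these data known. All 10 genes are named. Of each other list, up to 4 called genes with the largest changes per comparison could be named, and outside the lists the 5 genes closest to the mean pattern. A marker sum adds linear signals over the 75th percentile. Same-numbered mice deviated together between KO and WT marrow in treated mice (r = 0.308 to 0.512), where they also shared slides. In untreated mice replicates 1 and 3 did (0.427 and 0.413) and replicate 2 did not (-0.138), and between treated and untreated mice r was -0.383 to 0.205. Alternatives covered normalization, background correction, scaling, the filter, probes, outlier spots, slide, replicate block, samples in the fit, variance trend, array weights and leaving out each array. Background correction by normexp used median pixel signals, since mean pixel signals were not among the columns used here.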

Additional observations from a re-analysis of the deposited data

How the results depend on the processing

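Of 390 alternative values of the rises of Slpi, Lcn2, Ltf, Lrg1 and Hp (each marrow and both averaged), 348 stayed past the threshold, 42 did not and 0 changed direction. Of 1190 values not called, 14 were called under an alternative and 129 changed sign. These values include fits without an array of the other marrow, which leave the difference for 1 marrow unchanged. They also include fits that left 1 mouse in a treated group. Where a count of called genes among the 10 moved, the cause was not tested. With KO marrow (5 called) it was 3 with no variance trend, 3 without WT_untreated 2 and KO_untreated 2, and 2 to 5 leaving out 1 array. With WT marrow (5) it was 1 with slide as a fixed block, 2 with slide as a random block (correlation 0.503), 3 without WT_untreated 2 and KO_untreated 2, and 4 to 5 leaving out 1 array. With both marrows averaged (5) it was 8 with quantile normalization, 3 with the fixed block and 5 to 6 leaving out 1 array. KO against WT marrow gave 1 with array weights in untreated mice, as did the treatment effect's difference (both Slpi). On slide 2 alone, where 1 treated mouse stood against 1, KO minus WT marrow was -0.81 for Saa2. The array weights were fitted gene by gene because the default fit stopped early. Leaving out slide 3 or the 2 untreated mice was chosen after seeing the data. With the replicate number as a block, Pigr with the marrows averaged (-0.80) was the 1 call among the 10 genes that changed.

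Reversed with normexp were Hpx (0.17), Il22ra1 (0.06) and Ttr (0.27) with WT marrow, and Il22ra1 (0.08), Alb (0.13), Apoa2 (0.51) and Pecam1 (0.53) with both averaged. Pdgfra reversed with the mean of probes (-0.07, WT marrow). The fixed slide block reversed Ctsg (0.08), Prss22 (0.61) and Slc4a1 (0.11) with WT marrow, and Il22ra1 (0.20) and Slc4a1 (0.10) averaged. Over all genes, 749 were called with KO marrow, 3278 with WT marrow and 4989 averaged. Leaving out 1 array gave 251 to 1268, 487 to 7605 and 2786 to 8863, and 0 to 1665 for KO against WT marrow in untreated mice (0). The fixed slide block gave 1725, 127 and 1473, normexp 567, 855 and 2377, and array weights 5091, 11948 and 12590, plus 10732 for KO against WT marrow in untreated mice and 6670 for the treatment effect's difference (0 and 0). The random block gave 177 with WT marrow and 1238 averaged, and fitting only the groups compared 1330 with WT marrow. Slide 2 alone and the fit without slide 3 left 1 mouse in each treated group, too few to show the spread among treated mice. Their counts of called genes are not given. Without WT_untreated 2 and KO_untreated 2 the counts were 242, 282 and 1847. Of the 3278 called with WT marrow 858 were higher, of the 4989 averaged 1794. With quantile normalization 1743 of 4379 were higher with WT marrow, and with normexp 1118 of 2377 averaged, with a median of all genes of 0.31. Lcn2 was at or near background in untreated mice, which limits it to a bound.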
